A study of Mus musculus with 2 samples.

Results

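The 39 protein-coding Hox genes of the mouse were examined for binding of LSD1, a histone demethylase, in differentiated primary brown adipocytes. They were chosen by symbol from the GENCODE M21 annotation of mm10, out of 21853 protein-coding genes. All 83 LSD1 peaks lying between the outermost genes of the HoxA, HoxB, HoxC and HoxD clusters were described with them, out of 59175 peaks in the list. These peaks were selected by their presence in the authors' list, so that presence and score describe the genes and no test was made of them. The series holds 2 libraries, 1 from an LSD1 immunoprecipitate with a laboratory-made antibody and 1 from input DNA without antibody, both from brown adipocytes of the C57BL/6 N strain with the genotype given as control. The cells had been passaged 2 to 3 times in medium with 20% serum and were fixed for 5 min on day 10 of differentiation. Confluent cells had been induced with the thyroid hormone T3 (1 nM), insulin (850 nM), the PPARγ agonist rosiglitazone (1 µM), the phosphodiesterase inhibitor isobutylmethylxanthine (500 µM), indomethacin (125 nM) and the glucocorticoid dexamethasone (1 µM). There was 1 immunoprecipitate and no replicate, the list gives no read counts, and the depth is therefore unknown. Scores are those the authors deposited. Their scale was not stated, and they were used only to rank and describe peaks of the list.

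Hox genes encode homeodomain transcription factors that give cells their position along the body axis. In each cluster the genes are transcribed in the same direction and are numbered by paralog group, from group 1, active toward the head, to group 13, active toward the tail and in the ends of the limbs. Genes of the same number in different clusters are paralogs. The clusters are classic targets of Polycomb repressors and Trithorax activators, and mesenchymal cells of the adult keep part of their embryonic Hox pattern. Fat depots differ in the Hox genes they express, and Hoxc8, Hoxc9 and Hoxc10 are used as markers of white fat. LSD1, the product of Kdm1a, removes methyl groups from histone lysines and acts with CoREST proteins and histone deacetylases. A peak records where LSD1 was found and says nothing of whether a gene was expressed. In the same list, 5 of 6 marker genes of brown adipocytes had a promoter peak (Adipoq, Fabp4, Pparg, Plin1 and Cidea), and Ucp1 had none, where 55.8% of all protein-coding genes had one.

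The peaks of the Hox clusters differed in CpG content, and CpG-rich promoters lay both under peaks and outside them. The following RefSeq promoters (GRCm38.p6, from 250 bases before to 50 bases after the start, 5′ to 3′ on the strand of the gene, CpG dinucleotides in capitals) show a promoter with a high score beside one without a peak, in HoxA and in HoxD. Hoxa5 (chr6:52204538-52204837, minus strand) and Hoxa6 (chr6:52208623-52208922, minus strand) are neighbours, and their windows hold 29 and 26 CpGs, against a median of 7 over all 32851 windows of the table. Hoxd9 (chr2:74697513-74697812, plus strand) and Hoxd12 (chr2:74674763-74675062, plus strand) hold 20 and 13. Peaks overlapped the windows of Hoxa5 and Hoxd9, and none overlapped those of Hoxa6 and Hoxd12. By the CpG ratio over 1 kb, defined below, the pairs were less alike, with 0.998 for Hoxa5 and 0.784 for Hoxd9. Hoxa6 (0.635) and Hoxd12 (0.582) lay near the median of 0.615 over all genes.
Hoxa5, peak with a score of 730.1: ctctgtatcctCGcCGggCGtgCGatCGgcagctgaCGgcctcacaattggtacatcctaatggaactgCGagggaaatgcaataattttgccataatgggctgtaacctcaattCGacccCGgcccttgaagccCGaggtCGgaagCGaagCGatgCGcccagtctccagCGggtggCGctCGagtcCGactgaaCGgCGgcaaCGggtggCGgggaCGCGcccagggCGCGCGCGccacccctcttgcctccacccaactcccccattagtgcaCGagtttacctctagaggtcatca
Hoxa6, no peak: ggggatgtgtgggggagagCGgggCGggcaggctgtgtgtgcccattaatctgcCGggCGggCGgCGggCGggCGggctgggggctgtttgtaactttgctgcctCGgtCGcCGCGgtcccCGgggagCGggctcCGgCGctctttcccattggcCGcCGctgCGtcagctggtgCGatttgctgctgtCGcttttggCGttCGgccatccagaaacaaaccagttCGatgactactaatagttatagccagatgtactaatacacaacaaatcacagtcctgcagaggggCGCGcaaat
Hoxd9, peak with a score of 673: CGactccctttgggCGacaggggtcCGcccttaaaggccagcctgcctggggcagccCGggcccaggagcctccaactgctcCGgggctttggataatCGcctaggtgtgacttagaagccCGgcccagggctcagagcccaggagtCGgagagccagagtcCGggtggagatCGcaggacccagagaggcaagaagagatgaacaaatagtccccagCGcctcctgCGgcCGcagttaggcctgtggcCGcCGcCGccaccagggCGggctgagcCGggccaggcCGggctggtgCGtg
Hoxd12, no peak: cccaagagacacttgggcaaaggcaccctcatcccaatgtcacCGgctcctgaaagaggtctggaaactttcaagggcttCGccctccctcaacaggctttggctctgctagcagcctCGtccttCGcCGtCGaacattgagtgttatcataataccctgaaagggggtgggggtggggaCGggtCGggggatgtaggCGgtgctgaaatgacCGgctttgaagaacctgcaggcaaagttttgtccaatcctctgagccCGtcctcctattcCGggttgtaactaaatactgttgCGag

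For comparison, the central 200 bases are shown of the peak with the highest score outside promoters in HoxB and in HoxC (mm10, plus strand, CpG dinucleotides in capitals). The HoxB peak lies between Hoxb9 and Hoxb8, and its centre is chr11:96278078-96278277. These 200 bases hold 4 CpGs, a density close to the 20.9 per kb of the HoxB span as a whole. The HoxC peak lies between Hoxc8 and the protein-coding start of Hoxc6, and its centre is chr15:103001634-103001833. Its 200 bases hold 1 CpG, a density well below the 21.5 per kb of the HoxC span.
HoxB, score 415: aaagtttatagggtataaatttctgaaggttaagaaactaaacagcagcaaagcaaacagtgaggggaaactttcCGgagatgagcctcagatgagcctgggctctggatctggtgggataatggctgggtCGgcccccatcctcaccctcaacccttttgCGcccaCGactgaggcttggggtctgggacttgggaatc
HoxC, score 369: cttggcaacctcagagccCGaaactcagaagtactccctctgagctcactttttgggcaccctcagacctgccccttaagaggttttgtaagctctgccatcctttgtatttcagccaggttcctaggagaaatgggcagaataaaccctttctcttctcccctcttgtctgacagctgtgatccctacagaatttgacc

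LSD1 peaks overlapped the region within 1 kb of a protein-coding start, taken here as the promoter, in 28 of the 39 Hox genes. That is 71.8% (Wilson 95% interval 56.2 to 83.5%, counting error over genes only), where 55.8% of all protein-coding genes had such a peak. The promoters of Hox genes are richer in CpG than most, with a median CpG ratio (CpGs observed over those the base composition predicts, in the 1 kb centred on the start) of 0.721 against 0.615 over all genes. If each Hox gene had the share of its own CpG decile, 29.7 of the 39 (76.1%) would have a promoter peak. The members' count of 28 thus lay between the share over all genes and the share over genes of like CpG content. The start itself lay inside a peak in 19 of the 39 genes, 18 genes had 1 promoter peak and 10 had 2 or more, and no peak was counted for more than 1 Hox gene. Since 14 genes have several annotated starts, a peak at any of them counted.

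Scores over Hox promoters were low for promoters. The highest promoter score of the 28 genes ran from 75.8 to 730.1 with a median of 152, and the 12199 protein-coding genes with a promoter peak had a median of 315 (quartiles 156 and 570). Of the 28 genes, 22 lay below that median and 6 above it. Only Hoxa5, Hoxd9 and Hoxc13 had a promoter peak among the 10% of the list with the highest scores, 7.69% of the 39 genes, while 22.8% of all protein-coding genes had one. Even Hoxa5, the highest, was matched or exceeded by 16.0% of the bound genes of the genome. Among the 11 Hox genes in the upper 2 deciles of CpG content, 9 had a promoter peak with a median of 153, and of the 4370 genes of those deciles 91.6% were bound, at a median of 413.

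**Figure D1:**
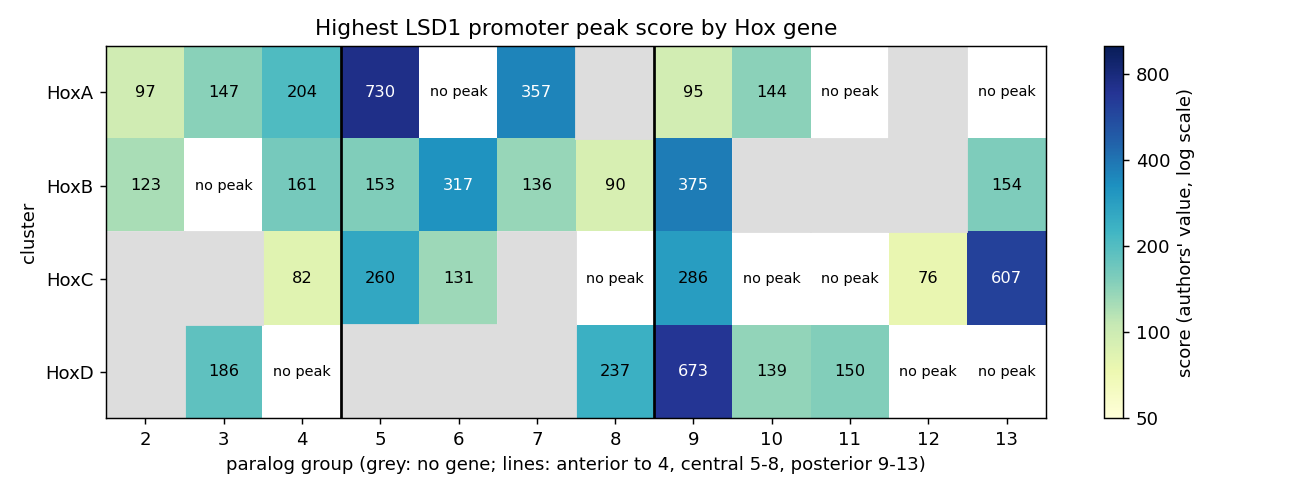
Highest LSD1 promoter peak score of the Hox genes of paralog groups 2 to 13, with the 4 clusters as rows and the paralog groups as columns (colour on a log scale, score as the authors deposited it, grey where the cluster has no gene of that number). Values above 315, the median of all bound genes, appear at Hoxa5, Hoxa7, Hoxb6, Hoxb9, Hoxc13 and Hoxd9, and white cells mark genes without a peak.

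By cluster, HoxB had a promoter peak at 8 of 10 genes, HoxA at 8 of 11, and HoxC and HoxD at 6 of 9 each. The intervals overlapped widely, from 49.0 to 94.3% for HoxB and from 35.4 to 87.9% for HoxC and HoxD. The median of the highest promoter scores was 145 in HoxA, 154 in HoxB, 195 in HoxC and 168 in HoxD. The top of the range differed more than the middle. HoxA, HoxC and HoxD each held 1 gene in the upper 10% of the list, while HoxB reached 375 at Hoxb9. No cluster was without peaks, and none had a peak at every gene. The order of the clusters depended on the width of the promoter, since within 500 bp HoxB had the lowest share, 6 of 10 genes, against 7 of 11 in HoxA and 6 of 9 in HoxC and HoxD.

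By position, central genes (paralog groups 5 to 8) had a promoter peak in 9 of 11 cases, anterior genes (groups 1 to 4) in 9 of 12 and posterior genes (groups 9 to 13) in 10 of 16. In percent, 81.8 (52.3 to 94.9), 75 (46.8 to 91.1) and 62.5 (38.6 to 81.5) were bound, and these intervals overlap. The median score of the bound genes was 237 in the central class, 140 in the anterior and 152 in the posterior. All 9 bound anterior genes were below the median of 315 for bound genes of the genome, with scores from 82.2 to 204. The central class ran from 90.05 to 730.1 and the posterior from 75.8 to 673. The posterior class had the lowest share and also 3 scores above the genome median. With only the peaks at or above the median score of the list, its share was that of the anterior class, 8 of 16 against 6 of 12 genes. Within the posterior class, groups 9 and 10 had a promoter peak at 6 of 7 genes, and groups 11 to 13 at 4 of 9. This division of the posterior class was chosen after the values were seen.

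Anterior genes had modest peaks. Hoxa2, which sets the identity of a pharyngeal arch, had a peak with a score of 97.4 at 40 bp from its start. Hoxb2, which acts in the facial motor nucleus, had a peak with a score of 123. The edge of this peak lay 785 bp from the protein-coding start of Hoxb2, the farthest of all the genes counted as bound. The annotated Hoxb2 gene begins upstream of that start, at chr11:96350525, inside the peak. Hoxd1, which acts in pain-sensing neurons, had a peak over its start with a score of 140. Hoxa3, needed for thymus and parathyroid, had 4 promoter peaks with scores of 147, 120, 105 and 77.1, at 2 annotated starts. These starts lie on either side of Hoxa4, Hoxa5 and Hoxa6, so that 1 of them is next to Hoxa7 and far from the Hoxa3 coding exons. Hoxd3, which shapes the uppermost vertebra, has 5 annotated starts and had 3 promoter peaks, with scores of 186, 76.8 and 57.1. The value of 57.1 is the lowest of the 83 peaks.

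In paralog group 4, Hoxa4 had the highest score of the anterior class, 204, and a second peak of 79.4. Hoxb4, used to expand blood stem cells, followed with 161 and Hoxc4 with 82.2, and Hoxd4 had none at either of its protein-coding starts. The annotated Hoxd4 gene begins upstream of these, at chr2:74711929, inside the Hoxd3 peak of 186. Its gene body overlapped 2 peaks, the one of 186 and another of 199.7. Hoxb1, which specifies a hindbrain segment, and Hoxb3 had no promoter peak either. Hoxb1 lay 10438 bp from the nearest peak. Hoxb3 was the nearest miss of all, with a peak at 1074 bp from a start (score 84.1), and 5 peaks lay in its gene body. Hoxb1 and Hoxb3 also had low CpG ratios, 0.428 and 0.341, and the latter is the lowest of the 39 genes.

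Central genes included the highest score of all Hox promoters. Hoxa5, a regulator of lung development that is also studied in the browning of fat (chr6:52201754-52204587), carried a peak of 1455 bp at chr6:52203489-52204943 with a score of 730.1, which covered its start. Its neighbour Hoxa6 had none within 2787 bp. The short Hoxa6 promoter window printed above holds nearly as many CpGs as that of Hoxa5. Over 1 kb, however, the CpG ratio of Hoxa6 was lower, 0.635 (decile 6) against 0.998 (decile 10) for Hoxa5. Hoxa7 carried a peak with a score of 357 and Hoxb6 3 peaks with 317, 227 and 76.8. In group 5, Hoxc5 had 260 and 88.1 and Hoxb5 153, so that all 3 genes of that group were bound. Hoxb7 had 3 peaks of 136, 130 and 75.5, Hoxc6 a peak of 131 over its start, and Hoxd8 peaks of 237 and 78.4. Hoxb8, which marks blood progenitors and microglia, had a weak peak of 90.05 at 527 bp. Hoxc8, the white-fat marker, lay 2580 bp from the nearest peak, which had a score of 87.0.

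Among the posterior genes, all 4 members of group 9 were bound, at very unequal scores. Hoxd9 (chr2:74697727-74700208), which acts in the limbs and lumbar spine, had a peak of 1455 bp at chr2:74697285-74698739 with a score of 673. Hoxb9, which shapes the ribs, had 2 wide peaks of 375 and 373, the nearer 116 bp from a start. Hoxc9, the white-fat marker that also acts in thoracic motor neurons, had peaks of 286 and 79.2. Hoxa9, a regulator of blood stem cells and leukaemia, had a score of 94.8 at 563 bp from a start, even though its CpG ratio of 0.872 was the highest of the 4. Hoxa10, active in the uterus, had peaks of 144 and 116, and Hoxd10, active in lumbar motor neurons, 1 of 139. Hoxc10, which in fat represses thermogenic genes, had none within 8451 bp.

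In groups 11 to 13 the clusters differed from gene to gene. Hoxc13, which controls hair keratin genes (chr15:102921103-102928814), carried the widest peak of the 4 clusters, 2372 bp at chr15:102920511-102922882, with a score of 607. Hoxb13, a prostate factor, had a peak of 154 over its start, Hoxd11, needed for the forearm, 1 of 150, and Hoxc12, expressed in hair follicles, 1 of 75.8. No promoter peak was found for Hoxa11, Hoxc11, Hoxd12, Hoxa13 and Hoxd13. Hoxa13 and Hoxd13, which shape digits and genital organs, have very CpG-rich promoters (ratios 0.947 and 0.907), in CpG deciles in which 93.2% (decile 10) and 90.02% (decile 9) of all genes were bound. The nearest peak to Hoxa13 lay 1491 bp away, outside the cluster span, with a score of 107, and the nearest to Hoxd13 lay 6100 bp away with a score of 69.8.

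**Figure D2:**
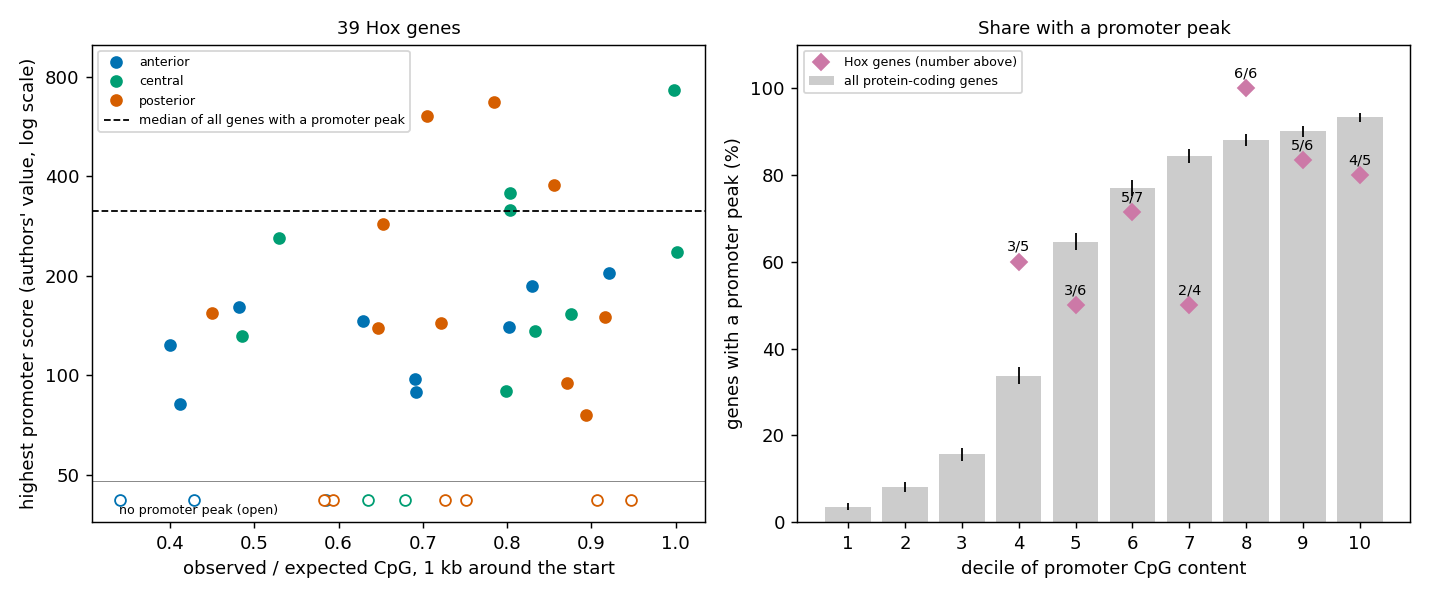
Left, highest promoter score (log scale, authors' value) against the CpG ratio of the promoter for the 39 Hox genes, coloured by position class, with open points for the 11 genes without a promoter peak (3 of them near 0.585 overlap) and a dashed line at 315, the median of all bound genes. Right, share of genes with a promoter peak by CpG decile for all protein-coding genes (bars, Wilson 95% intervals) and for Hox genes (diamonds, with numbers), where no Hox gene falls in the 3 lowest deciles.

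Bound Hox genes had the higher median CpG ratio, and the ranges of bound and unbound genes overlapped. The 28 bound genes had CpG ratios from 0.400 to 1.002 with a median of 0.792, and the 11 unbound genes from 0.341 to 0.947 with a median of 0.635. These ranges overlap over most of their length. By CpG decile, 6 of 6, 5 of 6 and 4 of 5 Hox genes were bound in deciles 8, 9 and 10. In deciles 4 to 7 the counts were 3 of 5, 3 of 6, 5 of 7 and 2 of 4. Hoxc12, in decile 9, had the lowest score of the bound genes, and Hoxb13, with a ratio of 0.450, had a score of 154. Across the 28 bound genes the Spearman correlation of CpG ratio and highest score was 0.251, given as a description since the genes share a library and a few chromosomal neighbourhoods.

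The clusters as a whole were dense in peaks. HoxA (chr6:52155590-52260880, 105 kb, minus strand) held 19 peaks, HoxB (chr11:96194316-96368256, 174 kb) 31, HoxC (chr15:102921103-103036852, 116 kb) 17 and HoxD (chr2:74668310-74765142, 96.8 kb) 16. Per 100 kb this is 18.05, 17.8, 14.7 and 16.5 peaks, against a median of 1 in the 26513 windows of 100 kb of the genome. At least as many peaks were found in 0.226, 0.317, 0.815 and 0.438% of those windows. The Hox clusters are also dense in genes. In the 128 windows of 100 kb with starts of at least 8 protein-coding genes, the median was 9 peaks (quartiles 6 and 14). This minimum was chosen after the clusters were described. Of these windows, 10.2% held 18 or more peaks, close to the density of HoxA, and 21.1% had at least that of HoxC. Windows over the Hox clusters were not left out. By their Hox genes alone, HoxB (10 in 174 kb) and HoxC (9 in 116 kb) are sparser than the minimum. Peaks covered 13.3% of HoxA, 12.99% of HoxB, 11.4% of HoxC and 12.4% of HoxD, against 1.73% of the sequenced genome and a median of 8.81% in those gene-dense windows.

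The number of peaks fell off outside the clusters. In the 100 kb beyond the group 13 end, HoxA had 5 peaks, HoxB 6, HoxC 3 and HoxD 3. Beyond the group 1 end (the group 4 end in HoxC) there were 8, 5, 7 and 1. Of the nearest protein-coding genes outside the clusters, Calcoco1 (score 845), Skap2 (596), Smug1 (285) and Evx1 (86.1) had a promoter peak, and Ttll6, Skap1, Evx2 and Mtx2 had none. Evx1 and Evx2 are homeobox genes beside group 13, and Evx2 lies 8.75 kb from Hoxd13. Evx2, Hoxd13 and Hoxd12 all lacked a promoter peak. The peak nearest to Hoxd13 (score 69.8, 6100 bp from its start) lay outside the cluster, on the Evx2 side.

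**Figure D3:**
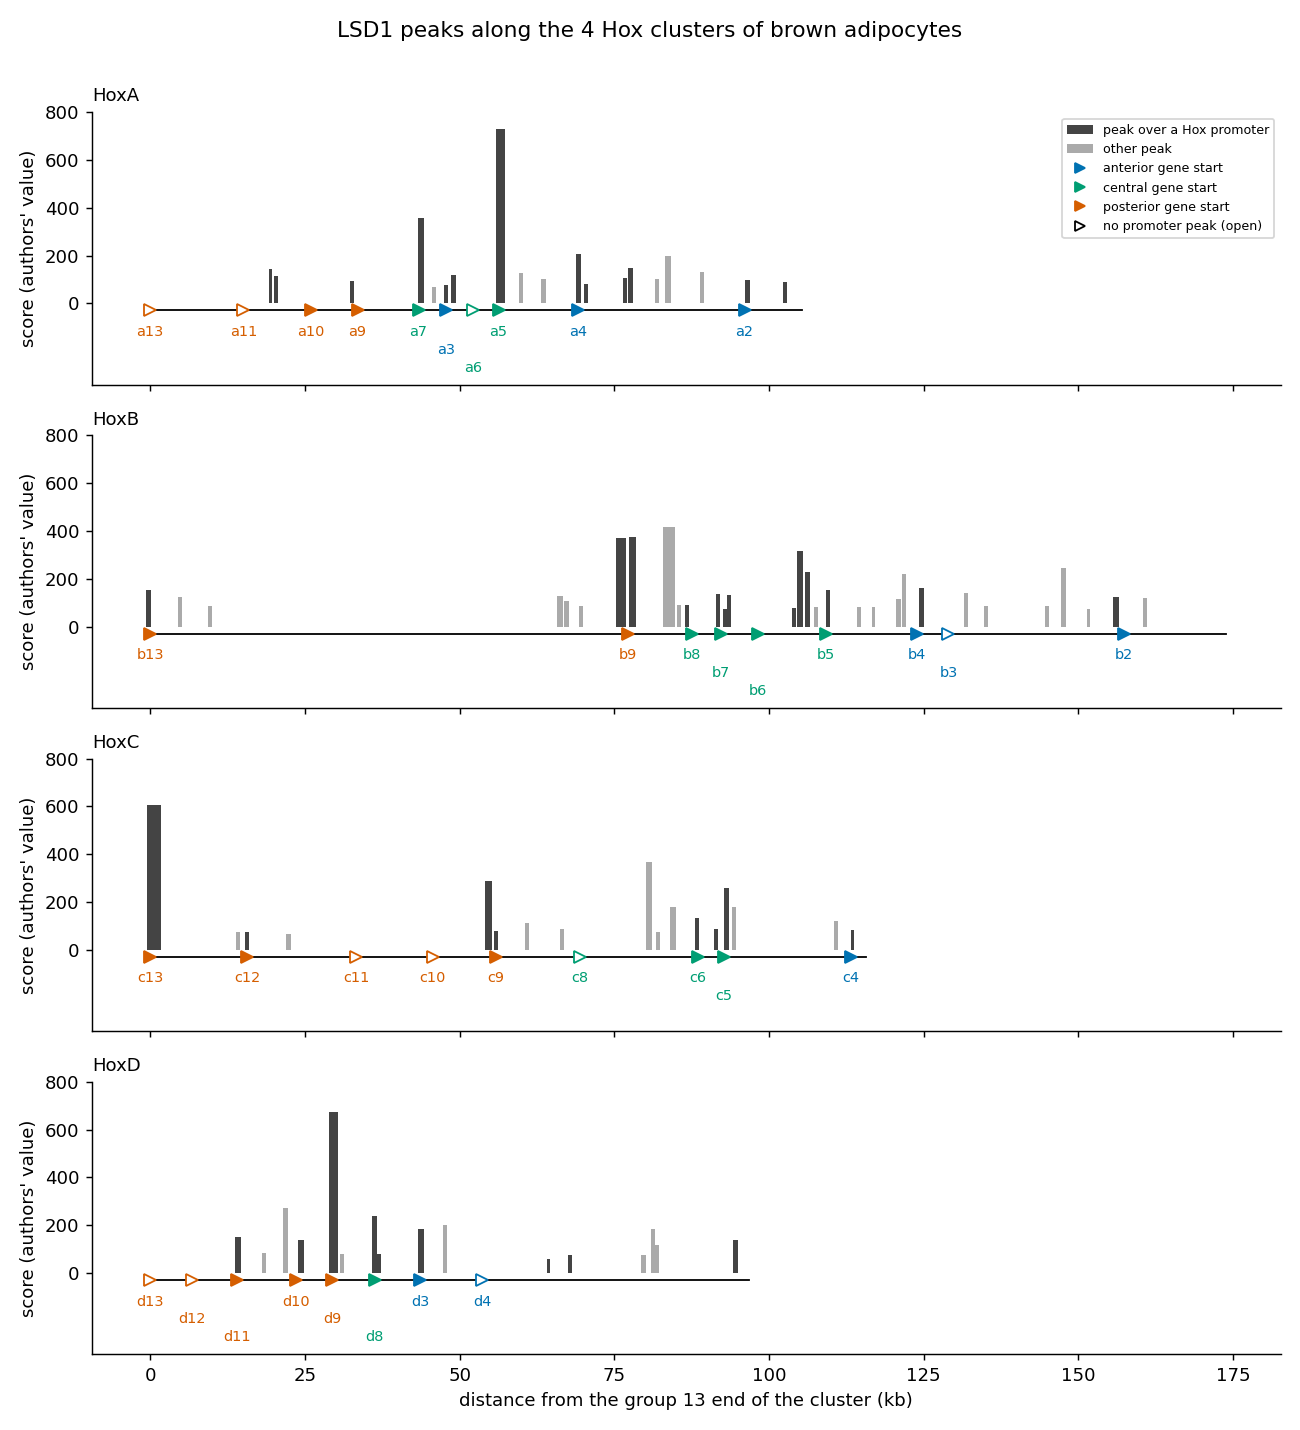
LSD1 peaks along HoxA, HoxB, HoxC and HoxD, all drawn with the group 13 end at the left (x axis in kb from that end, y axis the authors' score). Bars mark peaks (dark over a Hox promoter, light elsewhere, drawn at least 0.6 kb wide). Triangles mark the start of 1 APPRIS principal transcript (the annotation's main protein isoform) per gene of groups 2 to 13. They are open where no protein-coding start of the gene has a promoter peak, so that Hoxa10 and Hoxb6 are filled through peaks at another start.

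Peaks were spread unevenly within the clusters. The longest stretch without a peak in HoxA, 19.1 kb at chr6:52241753-52260880, held the starts of Hoxa11 and Hoxa13 and ran to the group 13 end. In HoxD, a stretch of 13.8 kb at chr2:74668310-74682068 at the same end held Hoxd12 and Hoxd13. A longer one of 16.0 kb at chr2:74716357-74732383 held the protein-coding starts of Hoxd4. HoxC differed, with Hoxc13 and Hoxc12 bound and a gap of 31.4 kb at chr15:102943822-102975246 over Hoxc11 and Hoxc10. The longest gap in HoxB, 55.9 kb at chr11:96204259-96260140, lay in the long interval between Hoxb13 and Hoxb9 and held no Hox start. By nearest Hox start, 34 of the 83 peaks belonged to anterior genes, 25 to central and 24 to posterior genes, or 2.83, 2.27 and 1.5 peaks per gene. Their median scores were 117, 131 and 120, so that the classes differed in the number of peaks more than in their middle scores. The counts per gene were not adjusted for the number or spacing of starts. The Hoxa3 start next to Hoxa7, for example, brought peaks there into the anterior class.

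Of the 83 peaks, 43 overlapped a Hox promoter and 40 did not. That is 51.8% over a promoter, where 24.4% of all peaks of the list overlapped the promoter of some protein-coding gene. The clusters are dense in gene starts, and the share was not compared with that of gene-dense windows. Promoters of other protein-coding genes inside the clusters were not counted among the 43. The promoter peaks of the clusters had a median score of 136 and a median width of 691 bp, and the other peaks 109 and 642.5 bp. Over the whole list the same medians were 231 and 912 bp at promoters and 102 and 602 bp elsewhere. In the clusters, promoter peaks and other peaks were thus nearer to each other in score and width than in the list, which was not tested. Of the 83 peaks, 47 had a score above the median of 111 for the list, 27 of the 43 at promoters and 20 of the 40 elsewhere.

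Several of the higher peaks lay away from any Hox promoter. The highest of HoxB, 2026 bp at chr11:96277165-96279190 with a score of 415, had its midpoint 3728 bp upstream of Hoxb8, and is the only non-promoter peak of the 4 clusters in the upper 10% of the list. In HoxC the peak at chr15:103001258-103002209 (score 369) lay 7840 bp upstream of the protein-coding start of Hoxc6. Another at chr15:103005140-103006000 (score 178) lay nearer to that start. The annotated Hoxc6 gene begins upstream of both peaks, at chr15:102998257, so that they lie in its gene body. They also lie inside the annotated Hoxc5 gene (chr15:102967443-103017429). In HoxD a peak of 274 at chr2:74689852-74690532 lay 1732 bp upstream of Hoxd10. In HoxA the highest such peak, 198 at chr6:52176674-52177682, covered a start of 5730596B20Rik, an annotated protein-coding gene inside the cluster. Elsewhere in HoxB, peaks of 243 and 218 lay 1882 bp and 2117 bp upstream of the nearest starts, of Hoxb3 and Hoxb4.

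**Figure D4:**
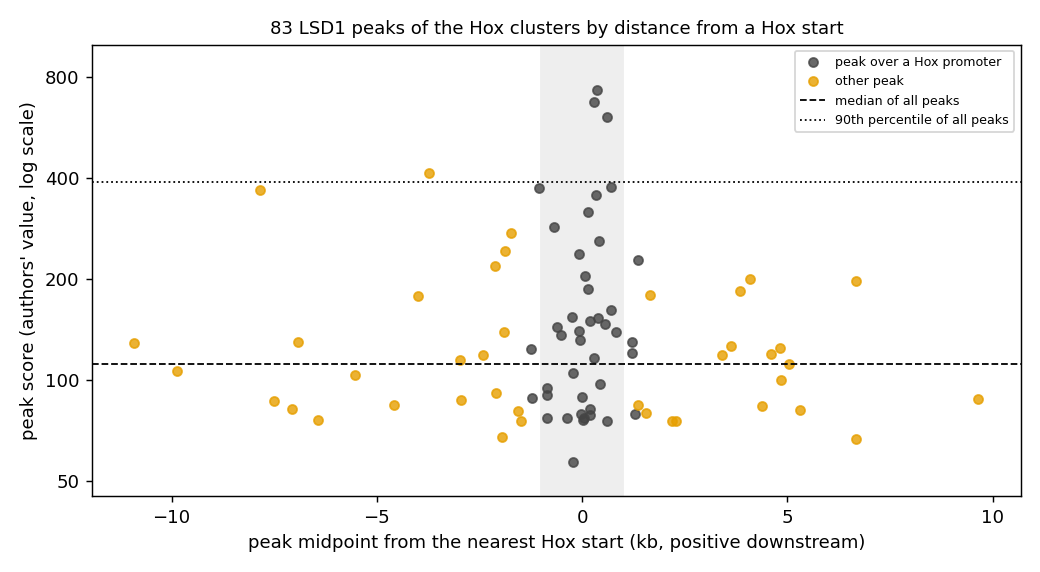
Score (log scale, authors' value) of the 83 peaks of the Hox clusters against the distance of the peak midpoint from the nearest Hox start in kb, positive downstream, with the 1 kb promoter region shaded. Dark points are peaks over a Hox promoter and orange points other peaks. The 3 highest scores lie at most 593 bp downstream of a start, and the dotted line marks the 90th percentile of the list (391).

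The midpoint lay within 1 kb of a Hox start in 36 of the 83 peaks, on the downstream side in 22 and on the upstream side in 14. The 3 highest, at Hoxa5, Hoxd9 and Hoxc13, had midpoints 371, 285 and 593 bp downstream. Of the 47 peaks farther away, 25 lay upstream and 22 downstream of the nearest start. A Hox gene codes its homeodomain in the last coding exon, and a peak overlapped that exon in 5 of the 39 genes, where 6.19% of all protein-coding genes had a peak there. They were Hoxa4 (score 79.4), Hoxb3 (75.5), Hoxb6 (227), Hoxc5 (179) and Hoxd9 (79.4). At Hoxa4 and Hoxb6 the same peak was also counted as a promoter peak. Hoxb3 is the only gene of the 5 without a promoter peak.

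Most long noncoding genes inside the clusters had a peak near a start. Of the 18 long noncoding genes (antisense, intergenic, divergent and processed transcripts), 13 had a peak within 1 kb of a start, against 26.3% of such genes in the genome. Their starts lie among Hox promoters, and several peaks are the same ones. The peak of 673 at Hoxd9 is also at the start of the antisense gene Gm28793, and the peak of 153 at Hoxb5 near that of Hoxb5os. Haglr, which starts near Hoxd1, had 3 peaks of 184, 140 and 119, and only the middle one is a Hox promoter peak. The antisense gene Gm11536 had the peak of 243 that lies upstream of a Hoxb3 start. Hotair, an intergenic transcript of HoxC, had none within 3909 bp, and neither Hoxa11os nor Gm14396, Gm14424 and Gm14426 of HoxD had one. Other noncoding genes with a peak included Hoxaas2, Gm15050, Hoxaas3 and Gm29430 in HoxA (97.4 to 147), Gm53 and Hoxb3os in HoxB (129 and 119), and Gm28309 and Hoxd3os1 in HoxD (150 and 199.7). Of 16 genes of the class misc_RNA, 3 had a peak, and Gm27898 and Gm27605 shared a peak of 124.5 behind Hoxb13.

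The clusters also carry miRNA genes, of which 3 of 7 had a peak within 1 kb of the annotated hairpin start, against 15.8% of all miRNA genes. They repress Hox mRNAs among other targets, and the mature forms (RefSeq, GRCm38.p6, seed in capitals) fall into families with a shared seed.
miR-10a-5p of Mir10a in HoxB: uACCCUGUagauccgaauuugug
miR-10b-5p of Mir10b in HoxD: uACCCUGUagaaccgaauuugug
miR-196a-5p of Mir196a-1 in HoxB and Mir196a-2 in HoxC: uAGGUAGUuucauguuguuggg
miR-196b-5p of Mir196b in HoxA: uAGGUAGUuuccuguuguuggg

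Within each of these families the copies differed. Mir10a had a peak of 218 ending 671 bp from its hairpin, and Mir10b had none within 6314 bp. Mir196a-1 had a peak of 86.7 at 929 bp, while the nearest peaks to Mir196a-2 (286, at Hoxc9) and Mir196b (94.8, at Hoxa9) lay 1897 and 1664 bp away. Mir615, inside Hoxc5, had the Hoxc5 promoter peak of 260 and a peak of 179 within 1 kb. A hairpin start is not the start of the primary transcript, so a miss of this kind says little about the promoter of the miRNA.

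The sequence at the centre of the Hox peaks was searched for 8 exact motifs on both strands in 200 bp around each midpoint. The shares over all peaks were not matched for promoter peaks, which were 51.8% of the Hox peaks and 24.4% of the list. CCAAT, the CCAAT box, was found in 23 of the 83 peaks (27.7%, against 23.1% of all peaks) and the GC box GGGCGG in 16 (19.3% against 13.5%). The E-box CACGTG was found in 7 (8.43% against 3.15%), among them the peaks over Hoxc12, Hoxd9 and Hoxd1. The Hox-Pbx motif TGATNNAT was in 4 peaks (4.82% against 6.90%) and the AP-1 motif, TGACTCA or TGAGTCA, in 1 (1.20% against 6.53%), the peak at chr11:96260141-96260964 upstream of Hoxb9. The consensus sequences of CTCF and NRF1 and the direct repeat of the retinoic acid receptor were in 0 of the 83, and in 0.640, 0.718 and 0.0879% of all peaks. A match is a stretch of letters and not a site, and no match says only that these letters are not in this window.

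Genes that work with or on the Hox clusters were also examined, and their counts are to be read against the 55.8% of all protein-coding genes with a promoter peak, a share that reached 84.4 to 93.2% in CpG deciles 7 to 10. The CpG content of these lists was not compared. All 9 cofactor genes of the Pbx, Meis and Pknox families, whose proteins bind DNA together with Hox proteins, had a promoter peak, with a median score of 400.02 and the highest at Pbx3 (651) and Pknox1 (523). Of 19 Polycomb genes, 18 did, with a median of 357 and the highest at Suz12 (849), a core subunit of the histone methyltransferase complex, and Cbx2 (816), a reader of its mark, and Phc3 had none. All 11 genes of the Trithorax list did, led by the methyltransferase Kmt2b (1253) and the scaffold Men1 (502), with a median of 230.1. Among genes that switch Hox genes on in the embryo or partition the clusters, 6 of 8 did, with a median of 305 and led by the retinoic acid receptors Rara (519.5) and Rarb (408), and Cdx2 and Cdx4 had none. All 4 lists thus had a higher median than the 152 of the Hox genes, and the cofactor and Polycomb genes also a higher one than the 315 of all bound genes.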

How the data were processed

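The authors immunoprecipitated LSD1 from differentiated brown adipocytes, sequenced the DNA and mapped reads to mm10 with Bowtie 2, per the labels' protocols. The submitters' processing notes list MACS 1.41. The sources used here give no filter, peak threshold or use of the input. Each peak has a score, as deposited by the authors, and no read count. Coordinates were read with the first base counted as 1. The chromosomes were those of GRCm38.p6, and 0 peaks reached beyond a chromosome end.

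Promoters were 1 kb on either side of any protein-coding start (GENCODE M21), and 1 bp of overlap sufficed. The CpG ratio of a gene is the highest among its starts. Windows of 100 kb with over 50% unsequenced bases were left out. RefSeq promoter windows were found for 22 of the 39 genes. Members and lists were chosen with earlier results of these data known. The genes are named except for 1 item not reported here, and from each further list the 2 highest scores and up to 2 genes without a peak in list order, with all brown adipocyte markers. With 1 library no test was possible. Overlap code was tested on simulated data. Analyses used Python 3.11.15, pandas 2.3.3, numpy 2.4.6 and scipy 1.17.1.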

Additional observations from a re-analysis of the deposited data

How the results depend on the processing

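The count of 28 Hox genes with a promoter peak was 25 with promoters of 500 bp (without Hoxa9, Hoxb2 and Hoxb8), 30 with 2.5 kb (with Hoxa13 and Hoxb3 added), 27 with the midpoint required inside the promoter (without Hoxb2) and 26 with APPRIS principal starts alone (without Hoxa10 and Hoxb6). All protein-coding genes were then bound in 53.7, 59.1, 54.1 and 52.8% of cases. The order of the shares was not stable. HoxB, the highest at 80%, was the lowest within 500 bp at 60%, and the posterior class, the lowest, shared 50% with the anterior class when peaks below the median score were left out. In the upper 10% of the list the posterior class had the highest share, 12.5%. The median highest score was 154, 154 and 153 with promoters of 500 bp, with 2.5 kb and with the midpoint inside. With the peaks at or above the median score of the list, 22 Hox genes were bound (56.4%, against 47.3% of all genes), HoxA fell to 5 genes, and the median highest score was 174. With the upper 10% of the list 3 genes were left, 1 each in HoxA, HoxC and HoxD and 0 in HoxB, of which 0 were anterior, 1 central and 2 posterior, with a median of 673. When groups 1 to 8 together formed the anterior class, 18 of 23 genes were bound (78.3%), against 62.5% of posterior genes. With spans extended by 10 kb on both sides, peaks covered 12.3% of HoxA, 12% of HoxB, 11% of HoxC and 10.8% of HoxD. Peaks at or above the median score numbered 10, 18, 9 and 10 in HoxA, HoxB, HoxC and HoxD and covered 7.65, 8.52, 7.09 and 8.51%. In the upper 10% there was 1 peak in each cluster, covering 1.38, 1.16, 1.54 and 1.5%. The fall in number under stricter scores follows from the smaller list. No paired analysis was possible because the result comes from no test and there is 1 library per group. The unknown depth limits any statement on a gene without a peak.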
